A study of Mus musculus with 8 samples.

Results

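The histone mark H3K27ac (lysine acetylation found at active enhancers and promoters) was described at 10 genes of the NF-kappaB system and of inflammatory cytokines in brain nuclei of progranulin knockout mice (GrnKO) and of wild-type mice (WT). The genes were the cytokines Tnf, Il1a and Il1b, the NF-kappaB subunit genes Nfkb1, Nfkb2, Rel and Relb, and the regulators Nfkbia, Nfkbiz and Tnfaip3. Their regions were all rows of the deposited table whose gene name was one of these symbols. They came to 229 of 129304 regions and to 10 of 18707 genes. Each region is 800 bp wide and had been chosen by the authors as an accessible chromatin site, as the table's name has it, and each carries the gene with the nearest annotated start site.

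The study compared C57BL/6 mice of both genotypes at an age of 2 years, with no treatment named beyond perfusion with saline. The knockout was labelled by gene only, and its allele was not given in the sources used here. Nuclei were sorted as PU.1+, OLIG2- and NEUN-, a gate that takes microglia and would also take other myeloid nuclei. Each genotype had 2 H3K27ac libraries and 2 input libraries (sheared chromatin without antibody), and nuclei of 2 mice were pooled for every replicate. In a bulk assay of this kind, fewer nuclei with a mark and less of the mark in each nucleus cannot be told apart.

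NF-kappaB is a family of dimeric transcription factors that are held inactive by inhibitory IkappaB proteins. Signals from cytokine or Toll-like receptors activate the IkappaB kinase complex, the inhibitor is degraded, and the dimers enter the nucleus and bind kappaB sites. Among the genes they induce are cytokines such as Tnf and Il1b and also the brakes of the pathway, Nfkbia and Tnfaip3. Microglia, the resident macrophages of the brain, are a main source of these cytokines in that tissue.

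Promoters of 7 of the 10 genes were matched in RefSeq (GRCm38.p6), as 10 sequences of the 250 bases before a start site. They were searched on both strands for the kappaB consensus and for the AP-1 motif TGANTCA. The kappaB consensus occurred in 6 of these sequences, from 4 genes (Nfkb2, Rel, Nfkbia and Tnfaip3), against 9.55% of 32851 mouse promoters. The AP-1 motif occurred in 3 of them, against 6.75% of all promoters. Matches can overlap, and the pair in the Rel promoter did. The 4 promoters below are shown because their genes differed in what H3K27ac did at and away from the start site. They are Tnf, where promoter and gene body changed, Nfkbia and Tnfaip3, where distant regions changed, and Rel, where no region did. All lie on the minus strand, at chr17:35202008-35202257 (Tnf), chr12:55492648-55492897 (Nfkbia), chr10:19015411-19015660 (Tnfaip3) and chr11:23770970-23771219 (Rel). Capitals mark kappaB matches.
Tnf: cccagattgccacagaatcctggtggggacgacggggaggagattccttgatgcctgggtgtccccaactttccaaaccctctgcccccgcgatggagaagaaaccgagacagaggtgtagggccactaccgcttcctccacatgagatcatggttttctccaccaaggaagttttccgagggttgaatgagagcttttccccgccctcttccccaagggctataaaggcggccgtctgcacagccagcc
Nfkbia: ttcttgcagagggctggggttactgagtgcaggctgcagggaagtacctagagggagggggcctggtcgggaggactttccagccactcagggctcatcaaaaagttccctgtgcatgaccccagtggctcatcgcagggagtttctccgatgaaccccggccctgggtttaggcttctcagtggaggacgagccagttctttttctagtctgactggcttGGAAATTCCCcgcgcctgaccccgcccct
Tnfaip3: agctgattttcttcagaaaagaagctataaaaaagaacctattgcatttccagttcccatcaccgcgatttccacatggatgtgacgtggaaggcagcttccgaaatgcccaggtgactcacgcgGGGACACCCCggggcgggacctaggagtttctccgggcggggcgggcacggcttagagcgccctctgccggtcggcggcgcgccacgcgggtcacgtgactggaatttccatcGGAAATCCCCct
Rel: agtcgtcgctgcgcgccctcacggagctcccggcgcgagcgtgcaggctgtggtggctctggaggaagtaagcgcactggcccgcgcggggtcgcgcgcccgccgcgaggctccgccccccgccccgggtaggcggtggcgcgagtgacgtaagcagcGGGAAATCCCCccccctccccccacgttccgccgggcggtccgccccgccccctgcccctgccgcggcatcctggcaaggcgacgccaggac
The Tnf stretch held no match, the Nfkbia stretch 1, and the Tnfaip3 and Rel stretches 2 each. A match describes the letters only.

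The 4 H3K27ac libraries held between 15491642.5 and 20030832 tags, and the 4 inputs between 4078179 and 14415969. WT replicate 1 had 49.36% of its H3K27ac tags inside the listed regions, against 63.33 to 65.68% in the other three. Values below are therefore the authors' values per 10000000 tags after a further TMM scaling, called scaled tags. Without that scaling the median change over all tested regions was 0.22 on the log2 scale instead of -0.002. Grn itself, which checks the labels, had 2291 and 1871 scaled tags in WT and 157 and 162 in GrnKO. Its promoter region at chr11:102429909-102430709 held 357 and 300.1 scaled tags in WT and 0 in both GrnKO libraries. Y-linked promoters were acetylated in replicate 2 of both genotypes (270 and 220.2 authors' tags) and held 5.81 and 0 in replicates 1, so any difference of sex between the pools is balanced over the genotypes.

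Across all regions tested, 9.72% passed an adjusted p of 0.05 (limma with Benjamini-Hochberg adjustment), 6.80% as higher and 2.92% as lower in GrnKO. Of the 229 regions of the NF-kappaB and cytokine genes, 152 passed the filter on low values and were tested. H3K27ac rose at 12 of these, or 7.89%, and fell at 1, or 0.658%, so the share of changed regions was near the background. The 13 changed regions belonged to Tnf, Nfkbia and Tnfaip3 and, because neighbouring regions overlap and share tags, they formed 8 separate stretches. No region of the other 7 genes passed, out of 98 tested by limma, though 10 had an unadjusted p under 0.05, and neither edgeR nor DESeq2 on recovered reads called one. Other settings on the same 4 libraries did call regions of these 7 genes, which were of Il1a and Nfkb1 under the authors' scaling, of Nfkb1 with pseudocount 5 and with array weights, and of Il1a, Il1b, Nfkb1 and Nfkb2 with the replicate number as a block. The 2 WT and 2 GrnKO libraries did not overlap at 67 of the 152 regions, or 44.1%, against 52.7% of all regions tested. GrnKO was the lower group at 32 of them, or 21.1%, against 25.6% of all. The median log2 change over the 152 was 0.03, and under the authors' own scaling 15 of them were higher and none lower. That scaling split the calls over all regions into 6583 higher and 333 lower, instead of 5488 and 2355.

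**Figure D1:**
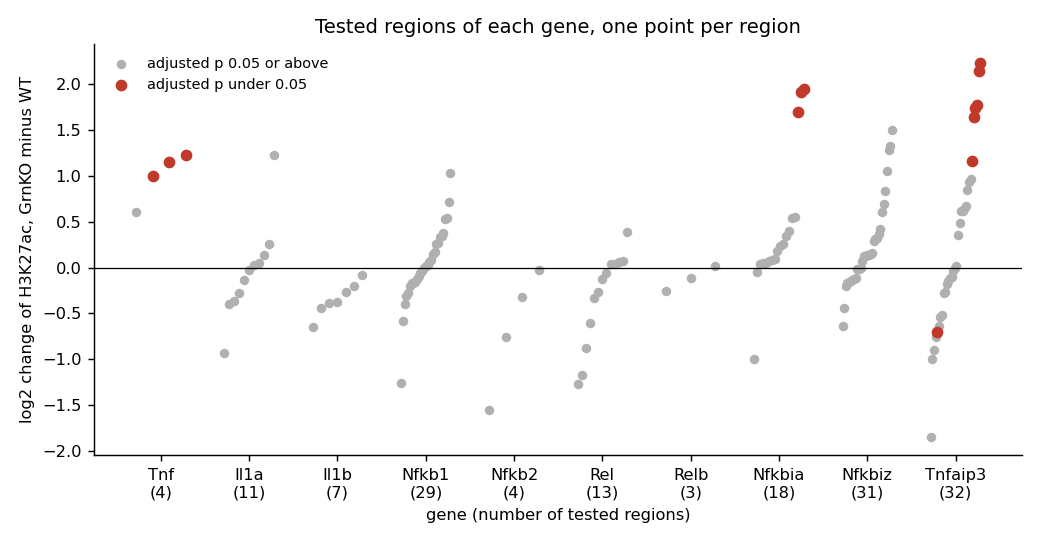
Log2 change of H3K27ac (GrnKO minus WT, vertical axis) for each of the 152 tested regions, grouped by gene, with red for an adjusted p under 0.05. The red points belong to Tnf, Nfkbia and Tnfaip3 only, 12 of them above 0 and 1 below.

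Summed over its regions, Tnf was the 1 gene of the 10 that changed, with 14.5% of all genes passing the same test (8.60% higher, 5.88% lower). The groups did not overlap at 5 of the 10 genes, against 54.8% of all genes. Tnf encodes tumour necrosis factor, the founding cytokine of its family. Its 4 regions summed to 284 and 292 scaled tags in WT and 570.2 and 577 in GrnKO. The groups did not overlap, and the means were 288 ± 5.09 and 574 ± 4.77 (SD, n = 2 each). The log2 change was 0.99 with a standard error (SE) of 0.14 and an adjusted p of 0.000376 by limma. These sums rest on 363 to 1250 tags per library. Where regions overlap, as some do here, a tag counts in each of them in this and every gene sum. The tags are therefore not all distinct. Input values are given in the authors' scaling, and over Tnf they were 0 in 3 libraries and 14.2 in GrnKO input 1.

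H3K27ac rose at 3 of the 4 Tnf regions. The strongest, at chr17:35200806-35201606 in intron 1 of 3, held 90.7 and 96.1 scaled tags in WT and 212 and 203 in GrnKO (log2 change 1.15, SE 0.19, adjusted p 0.000733 by limma). The overlapping region at chr17:35200245-35201045, annotated to an intron of a second transcript, held 92.3 and 93.5 in WT and 177 and 197 in GrnKO (log2 change 1.00, adjusted p 0.00277). Both cover the gene body. A region centred 568 bp upstream of the start site, at chr17:35202175-35202975, was the weakest and held 31.3 and 24.4 in WT and 60.5 and 71.5 in GrnKO (log2 change 1.22, adjusted p 0.0190). The region over the start site, chr17:35201672-35202472, held 70.0 and 77.5 in WT and 120 and 105 in GrnKO, and its log2 change of 0.60 did not pass the test (adjusted p 0.105). At all 4 regions both GrnKO libraries were above both WT libraries.

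The neighbours of Tnf in the lymphotoxin cluster did not share 1 direction. Regions that the table assigns to Lta, which encodes lymphotoxin alpha, lie upstream of Tnf, and H3K27ac rose at 6 of them, 7.54 to 16.9 kb from the Tnf start site. The highest of these, at chr17:35209940-35210740, held 226 and 186 scaled tags in WT and 354 and 379 in GrnKO (log2 change 0.83, adjusted p 0.00187). On the other side, the 3 overlapping regions at the promoter nearest to Ltb, which encodes lymphotoxin beta, fell. Their log2 changes lay between -0.99 and -0.81, with adjusted p between 0.0345 and 0.0449. At the regions starting at 35193970 and 35194229, GrnKO input 2 held 44.9 and 40.8 authors' tags. The H3K27ac library of that replicate held 59.9 and 72.1 there, so these GrnKO values are not clear of background. The 5 regions of Lst1, farther downstream, were not called (log2 changes -0.34 to -0.23).

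The interleukin-1 genes differed from Tnf. Il1a and Il1b encode the agonists of the interleukin-1 receptor and lie side by side on chromosome 2. Il1a held 1257 and 1399 scaled tags in WT and 1394 and 1370 in GrnKO, so the groups overlapped (log2 change 0.06, SE 0.10, adjusted p 0.769). About 70% of that signal lay within 1000 bp of the start site, from 69.8 to 73.6% in the 4 libraries. The region with the most H3K27ac, at the Il1a promoter (chr2:129309720-129310520), held 299.6 and 371 in WT and 415 and 382 in GrnKO and was not called (log2 change 0.26, adjusted p 0.290). It was called without WT replicate 2 (0.41, adjusted p 0.0318), and without WT replicate 1 the log2 change was 0.10 (adjusted p 0.668). One Il1a region, chr2:129305774-129306574, held 352 authors' tags in WT input 1 and was at 0 in the other inputs, against 42.9 to 61.7 in the H3K27ac libraries on the same scale. At the 3' end of Il1a lie regions that the table assigns to Gm14023, so they are not among the regions counted for Il1a, and 2 of them were called lower. One, chr2:129301019-129301819, lies in intron 6 of 6 of Il1a and held 20.7 and 16.8 scaled tags in WT and 0 and 3.46 in GrnKO (log2 change -3.22, adjusted p 0.0274). This weak region was not called by edgeR (adjusted p 0.0599), without the filter on low values (0.0649), in the contrast with the inputs (0.208) or without GrnKO replicate 1 (0.278), and without WT replicate 1 it lay just under the threshold (0.049996). GrnKO input 2 held 38.8 authors' tags there. The other, chr2:129297481-129298281, held 88.8 and 109.7 in WT and 54.0 and 56.3 in GrnKO (log2 change -0.83, adjusted p 0.0419) and was not called under the authors' scaling (adjusted p 0.270), without the filter (0.0607), in the input contrast (0.801), or without GrnKO replicate 1 (0.329), GrnKO replicate 2 (0.241) or WT replicate 2 (0.0847).

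Il1b held 1389 and 1550.2 scaled tags in WT and 1115 and 1224 in GrnKO. Both GrnKO libraries were below both WT libraries, with means of 1470 ± 114 and 1169 ± 77.2 (SD, n = 2 each). The log2 change of -0.33 (SE 0.11) just missed the threshold, at an adjusted p of 0.0524 by limma. It passed without WT replicate 1 (-0.41, adjusted p 0.00197) and under 4 other settings, and was -0.10 under the authors' scaling. At 6 of its 7 tested regions both GrnKO libraries were below both WT libraries, but no single region was called by limma (2 had an unadjusted p under 0.05). Most of the Il1b signal was not at its promoter, which held between 2.47 and 4.58% of it. A stretch of 3 overlapping regions 9.23 to 10.2 kb upstream held 1086 and 1219 scaled tags in WT and 895 and 971 in GrnKO. Its highest region, chr2:129379994-129380794, held 495 and 548 in WT and 436 and 473 in GrnKO (log2 change -0.20, adjusted p 0.351).

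**Figure D2:**
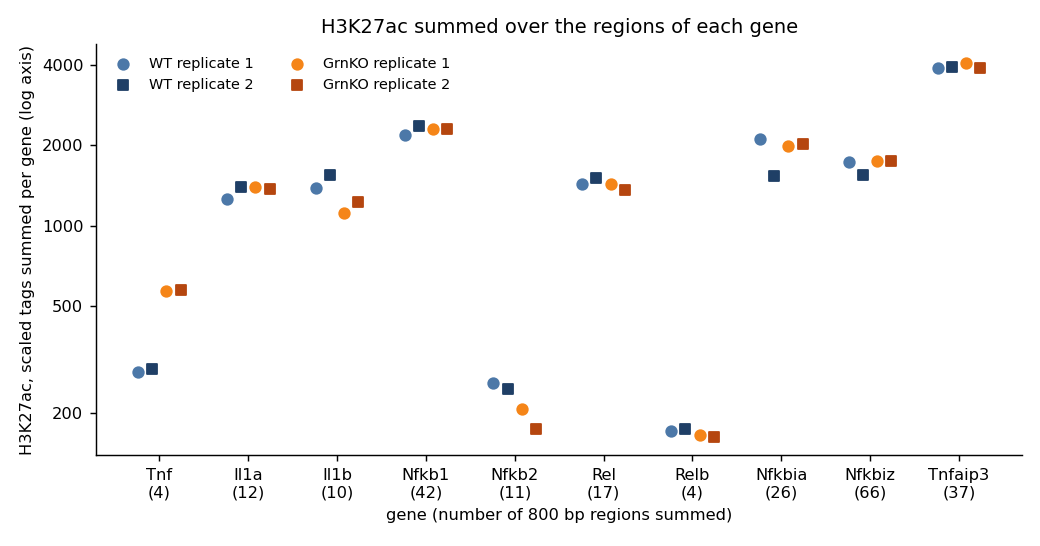
H3K27ac summed over all regions of each of the 10 genes (scaled tags, log axis) in the 4 libraries, with circles for replicate 1 and squares for replicate 2. Tnf is the gene whose libraries part most, at 284 and 292 in WT and 570.2 and 577 in GrnKO, while the symbols of most other genes lie close together.

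None of the 4 subunit genes changed in sum. Nfkb1 encodes the precursor that is processed to the smaller partner of the canonical dimer. It held 2176 and 2367 scaled tags in WT and 2297 and 2309 in GrnKO over 42 regions (log2 change 0.02, SE 0.09, adjusted p 0.912). Its strongest region was not the promoter but an intron 83.7 kb into the gene, chr3:135607481-135608281, with 333 and 329 in WT and 288 and 337 in GrnKO. Nearest to the threshold was chr3:135612032-135612832, which held 71.2 and 96.6 in WT and 154 and 122 in GrnKO (log2 change 0.72, adjusted p 0.056). It was picked out after its values were seen.

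Rel encodes c-Rel, a subunit with a transactivation domain. It held 1431 and 1512 scaled tags in WT and 1438 and 1359 in GrnKO, with overlapping groups (log2 change -0.07, SE 0.10, adjusted p 0.698). Its strongest region lay in the first kilobase of the gene, chr11:23769905-23770705, and ranged from 316 to 334 over the 4 libraries. A stretch of 3 regions 50.1 to 52.5 kb upstream summed to 545 and 571 scaled tags in WT and 603 and 548 in GrnKO.

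Nfkb2 and Relb, the subunits of the non-canonical pathway, carried the least H3K27ac in sum. Nfkb2 held 259 and 246 scaled tags in WT and 207 and 175 in GrnKO, and the log2 change of -0.41 (SE 0.18) was not called (adjusted p 0.159). Of these tags, 97.1 to 99.8% lay within 1000 bp of its start sites. WT input 1 held 201 authors' tags over Nfkb2, against 214 in the H3K27ac library of that replicate on the same scale, so this WT value is not clear of background. Of its 4 tested promoter regions, 2 had both GrnKO libraries below both WT libraries, and WT input 1 held its tags at these same regions (137 and 63.8). Relb held 172 and 174 in WT and 165 and 163 in GrnKO (log2 change -0.07, SE 0.19, adjusted p 0.855). Per region, the mean WT level ran from 22.9 scaled tags for Nfkb2 to 147 for Il1b.

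Nfkbia encodes IkappaBalpha, the inhibitor that NF-kappaB itself induces. In sum it held 2109 and 1530 scaled tags in WT and 1992 and 2017 in GrnKO, so the WT libraries lay on both sides of the GrnKO libraries (log2 change 0.16, SE 0.13, adjusted p 0.475). The value rests on which WT library is kept, since the change was 0.39 (adjusted p 0.000779) without WT replicate 1 and -0.07 (adjusted p 0.621) without WT replicate 2. At the promoter the means were alike, at 808 ± 230 and 806 ± 6.90 (SD, n = 2 each). Its 3 regions within 1000 bp of the start site held 971 and 645 scaled tags in WT and 811 and 802 in GrnKO.

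H3K27ac rose at 3 Nfkbia regions that overlap in a chain, 25.6 to 26.9 kb downstream of the start site (chr12:55465373-55467411, intergenic). In sum they held 63.4 and 25.7 scaled tags in WT and 164 and 149 in GrnKO, or 44.5 ± 26.7 against 156 ± 10.8 (SD, n = 2 each). The middle one, chr12:55466034-55466834, held 25.03 and 12.1 in WT and 75.2 and 62.1 in GrnKO (log2 change 1.91, SE 0.38, adjusted p 0.00323). The outer ones had log2 changes of 1.95 (adjusted p 0.00782) and 1.69 (adjusted p 0.0470). The latter was not called by edgeR (adjusted p 0.0828) or DESeq2 (0.0933), with pseudocount 0.5 (0.0510) or without the filter (0.104). Its call was also lost without WT replicate 2 (log2 change 0.885). At the former, chr12:55466611-55467411, the WT inputs held 66.2 and 17.6 authors' tags against 16.1 and 8.41 in the WT H3K27ac libraries, so its WT level is not clear of background. The calls at all 3 regions were lost when either GrnKO library was left out. A stronger stretch 45.3 to 45.8 kb downstream, which held 237 and 246 in WT and 251 and 289.8 in GrnKO, had no called region.

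Nfkbiz encodes IkappaBzeta, a nuclear IkappaB protein that works as a coactivator at secondary response genes. It held 1730.1 and 1554 scaled tags in WT and 1746 and 1743 in GrnKO (log2 change 0.09, SE 0.10, adjusted p 0.614). Of its 66 regions, the most of any of the 10 genes, 31 were tested and none was called by limma, with 1 at an unadjusted p under 0.05. The strongest, an intronic region 493 bp from a start site (chr16:55821245-55822045), held 235 and 256 in WT and 255 and 284 in GrnKO.

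Tnfaip3 encodes the ubiquitin-editing enzyme that ends NF-kappaB signalling after activation. In sum it held 3894 and 3933 scaled tags in WT and 4069 and 3892 in GrnKO, and the groups overlapped (log2 change 0.02, SE 0.07, adjusted p 0.879). Within the locus, however, 6 regions rose and 1 fell out of 32 tested. The regions within 1000 bp of its start sites showed no such shift, with 646 and 594 scaled tags in WT and 648 and 574 in GrnKO.

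The regions of Tnfaip3 that rose lay inside and beyond the gene. In introns 1 and 2, 5 regions between 5.81 and 7.58 kb from the first start site held 268 and 229 scaled tags in WT and 552 and 531 in GrnKO, and 3 of them were called. The strongest evidence was at chr10:19008091-19008891, with 53.2 and 42.2 in WT and 155 and 164 in GrnKO (log2 change 1.73, SE 0.23, adjusted p 0.000125). Past the end of the gene, 18.9 to 19.7 kb from that start site, 2 adjoining regions rose from low levels. The first, chr10:18995339-18996139, held 15.3 and 17.8 in WT and 89.4 and 73.4 in GrnKO (log2 change 2.23, SE 0.33, adjusted p 0.000311). The second had a log2 change of 2.14 (adjusted p 0.000995). The sixth region, 71.8 kb from the start site at chr10:18943260-18944060, is annotated in an LTR element and held 24.2 and 13.4 in WT and 60.0 and 56.5 in GrnKO (log2 change 1.64, adjusted p 0.00885).

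Upstream of Tnfaip3, 1 region was called, as lower. This region, chr10:19033476-19034276, lies 18.5 kb upstream and held 226 and 252 scaled tags in WT and 140.3 and 152 in GrnKO (log2 change -0.70, SE 0.17, adjusted p 0.0136). The rule for naming takes at most 6 called regions of a gene, and this one came after them, so it was picked out after its values were seen. It was not called under the authors' own scaling (-0.48, adjusted p 0.332). The 4 regions between 17.2 and 28.6 kb upstream together held 534 and 647 in WT and 383 and 396 in GrnKO. A weaker region 38.4 kb upstream had both GrnKO libraries above both WT libraries (27.4 and 43.7 in WT, 45.8 and 52.1 in GrnKO) and was not called (log2 change 0.49, adjusted p 0.407). Farther out, 46.7 to 49.5 kb upstream, lay the stretch that holds the most acetylated region of the 10 genes, with 2109 and 2211 scaled tags in WT and 1960.0 and 1898 in GrnKO over 5 regions. That region, chr10:19062303-19063103, held 617 and 654 in WT and 562 and 559 in GrnKO and was not called (log2 change -0.18, adjusted p 0.349).

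**Figure D3:**
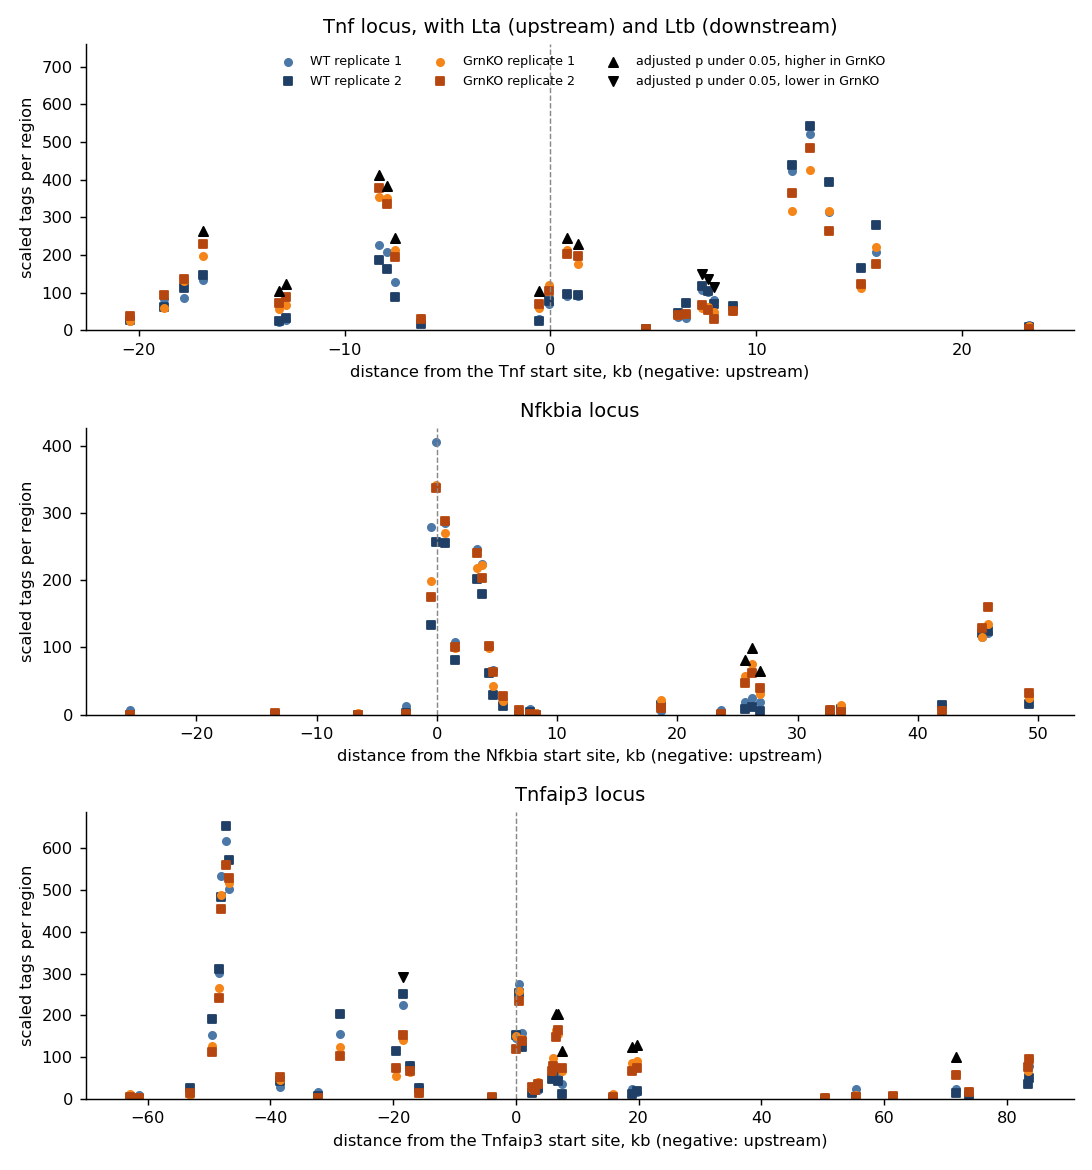
Scaled tags of every region (points, 4 libraries) against the distance from the start site in kb, at the Tnf, Nfkbia and Tnfaip3 loci, with triangles over regions that passed the test. At Tnfaip3 the triangles pointing up lie inside and downstream of the gene and the single one pointing down lies upstream, while at Tnf the upward triangles span the gene and the Lta side and the 3 downward ones sit at Ltb.

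By position, 2 of the 32 tested regions within 1000 bp of a start site rose (both Tnf) and none fell, where 3.57% of all such regions rose and 1.61% fell. Of the 120 regions farther away, 10 rose and 1 fell, where 7.99% of all such regions rose and 3.40% fell. Of the 13 calls, 2 held when GrnKO replicate 1 was left out and 5 when GrnKO replicate 2 was. With 1 library left in a group, that library is assumed to vary like the others. Leaving out WT replicate 1 kept all 13 and leaving out WT replicate 2 kept 12.

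The rest of the pathway was followed in 6 lists, chosen with earlier results of these data known, with 113 genes tested. H3K27ac rose at 15 of them (13.3%, against 8.60% of all genes) and fell at 12 (10.6%, against 5.88%). Under the authors' scaling 14 of the 113 were called higher and none lower, against 1629 higher and 166 lower over all genes. Their median log2 change was -0.04, against -0.05 over all genes. Among the 7 other subunits and IkappaB proteins, 1 fell (14.3%, against 5.88% of all genes) and none rose. Nfkbie, which encodes IkappaBepsilon, fell from 586 and 635 scaled tags in WT to 365 and 360 in GrnKO (log2 change -0.75, adjusted p 0.00208). Rela, which encodes the main transactivating subunit, held 625 and 686 in WT and 613 and 594 in GrnKO and was not called (log2 change -0.12, adjusted p 0.603).

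Of 27 kinases and adaptors that activate NF-kappaB, 4 fell (14.8%, against 5.88% of all genes) and 2 rose (7.41%, against 8.60%). Those that fell were Tab2 (log2 change -0.70), an adaptor that links ubiquitin chains to the kinase encoded by Map3k7 (-0.57), Tbk1 (-0.47), a kinase of innate immune signalling, and Chuk (-1.03), which encodes IkappaB kinase alpha. Tab2 held 2382 and 2376 scaled tags in WT and 1378 and 1545 in GrnKO. Map3k8 (0.32), a kinase that acts downstream of Toll-like receptors, was among those that rose. Of 21 negative regulators, 2 rose (9.52%, against 8.60% of all genes) and 1 fell (4.76%, against 5.88%). Tnip1 (0.62), a partner of the enzyme encoded by Tnfaip3, and Zc3h12a (0.35), an RNase that degrades cytokine transcripts, rose. Cyld (-0.59), a deubiquitinase, fell.

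Of 14 receptors of TNF-family and interleukin-1-family cytokines, 2 fell (14.3%, against 5.88% of all genes) and none rose. Those that fell were Il1rl1 (-0.66), the receptor of interleukin-33, and Tnfrsf13b (-0.44), a receptor of B cell activating factors. No receptor was called under the authors' scaling. Of 20 other cytokine genes tested, 4 rose (20%, against 8.60% of all genes) and 2 fell (10%, against 5.88%). Lta (0.82), Osm (0.69), Csf1 (0.53) and Lif (0.80) rose. Osm and Lif belong to the interleukin-6 family, and Csf1 is a growth factor of microglia. At Lif, GrnKO input 2 held 204 authors' tags against 168 in the H3K27ac library of that replicate, so this GrnKO value is not clear of background. Ltb (-0.75) and Il6 (-0.53) fell. Il6 held 981 and 1135 scaled tags in WT and 667 and 799 in GrnKO. Of 24 further textbook targets of NF-kappaB, 7 rose (29.2%, against 8.60% of all genes) and 2 fell (8.33%, against 5.88%). Their median log2 change was 0.27, against -0.05 over all genes. The list was chosen with earlier results of these data known. These contrasts therefore do not test whether NF-kappaB targets gain H3K27ac. Gadd45b, a stress response gene, went from 156 and 118 scaled tags in WT to 585 and 567 in GrnKO (log2 change 2.08, adjusted p 1.02e-05). Pim1 (0.89), Ier3 (0.69) and Nos2 (1.18) also rose, while Icam1 (-0.35) and Mmp9 (-1.75) fell. Inputs were also high against the H3K27ac signal at Mmp9, where GrnKO input 1 held 28.4 authors' tags against 7.34, and at Chuk, where GrnKO input 2 held 40.8 against 44.7. Shares of more moderate size were seen at Ltb (GrnKO input 2, 112 against 219), Tnip1 (WT input 1, 145 against 269) and Nos2 (WT input 2, 19.8 against 32.6).

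**Figure D4:**
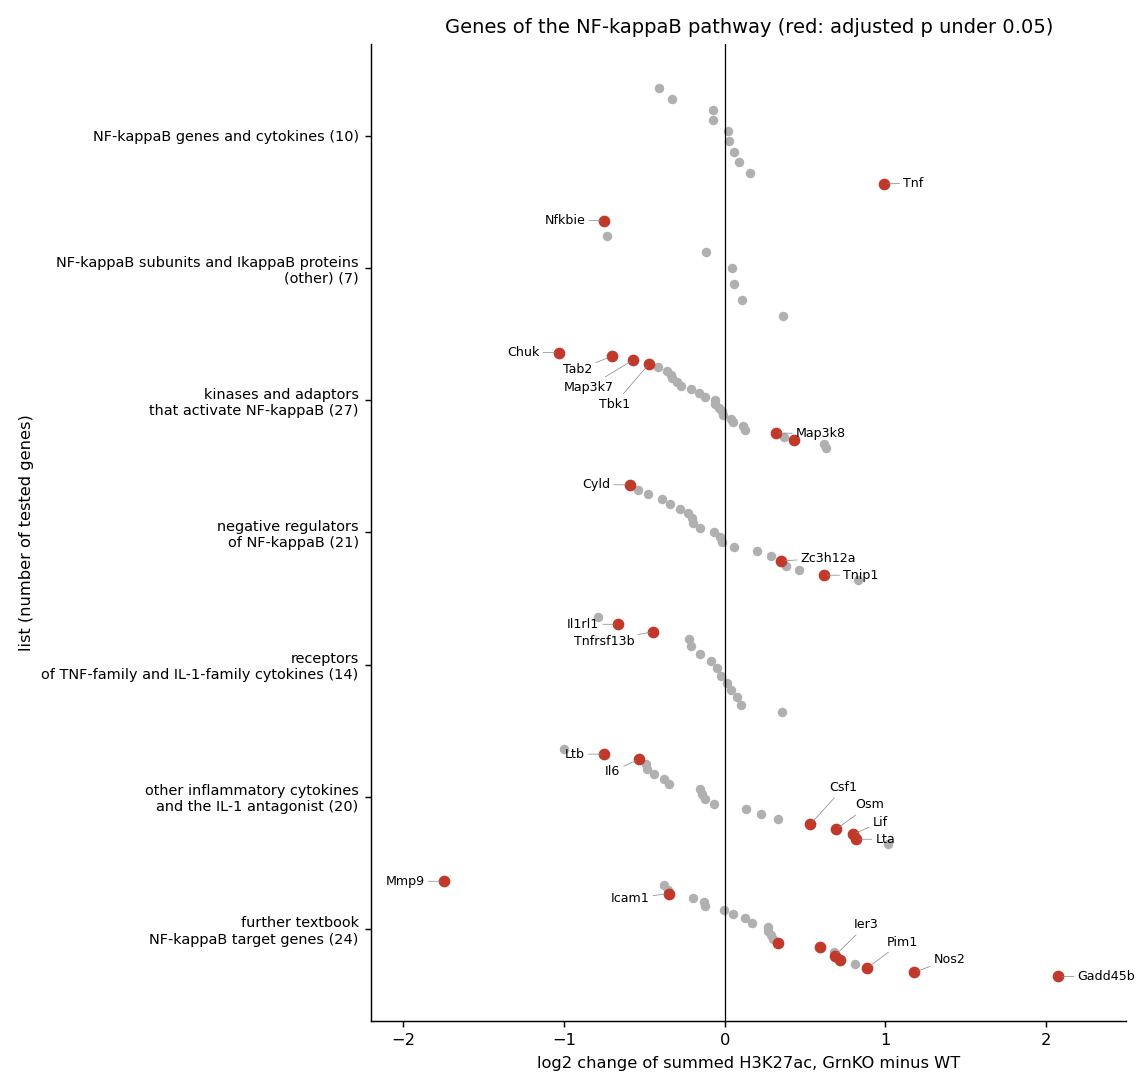
Log2 change of summed H3K27ac (GrnKO minus WT, horizontal axis) for each tested gene of the 10 and of the 6 pathway lists, with red for an adjusted p under 0.05 and names for the genes described in the text. Red points lie on both sides of 0 in 4 of the 6 lists, with Gadd45b at 2.08 the farthest to the right.

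Marker genes of cell types moved as well. All 10 markers of microglia and other myeloid cells were acetylated, and 6 of them fell (against 5.88% of all genes), among them Csf1r, Cx3cr1, Tmem119, Sall1 and Siglech, with summed levels of 53962 and 58814 scaled tags in WT and 44806 and 47391 in GrnKO. None of the 10 was called under the authors' scaling. The 12 lymphocyte markers, of which 8 were in the table and 5 were tested, summed to 557 and 470.1 in WT and 1017 and 892 in GrnKO, and Cd4 and Ms4a1 rose. Cd4 went from 138 and 137 to 255 and 274, and Ms4a1 from 219 and 197 to 609 and 463, while Cd3d, Cd79b and Cd247 overlapped between the groups and were not called. The 6 markers of border macrophages summed to 1084 and 1054 in WT and 1406 and 1318 in GrnKO, and Ms4a7 rose. Ms4a7 went from 170 and 147 to 549.9 and 420, and the other 5 border macrophage markers were not called. Markers of monocytes and neutrophils summed to 597 and 594 in WT and 481 and 385 in GrnKO, with S100a8 higher and Ccr2 lower. S100a8 had 1 weak region, with 0 and 5.24 scaled tags in WT and 20.4 and 18.7 in GrnKO. This gene was not called by edgeR (adjusted p 0.112) or by limma with pseudocount 0.5 (0.0600). Ccr2 was not called by edgeR (0.0541) or by limma under the authors' scaling (0.523). Oligodendrocyte markers summed to 2007 and 2002 in WT and 2509 and 2656 in GrnKO, where Mbp rose and Mog fell. Endothelial and mural markers summed to 2039.8 and 2030.3 in WT and 2096 and 2257 in GrnKO, where Flt1 rose (log2 change 0.95, adjusted p 0.000282) and Pecam1 fell (log2 change -1.45, adjusted p 2.59e-05). Astrocyte markers summed to 3513 and 3440 in WT and 3215 and 3267 in GrnKO, and 0 of the 4 tested were called by limma (2 had an unadjusted p under 0.05), edgeR or DESeq2. Those 2 were Aldh1l1 (log2 change 1.91) and Slc1a2 (0.80), each higher in GrnKO. Slc1a3 (-0.10) and Aqp4 (-0.96) were lower. Slc1a3 held most of the sum, with 3400 and 3368 scaled tags in WT and 3131 and 3171 in GrnKO. Neuronal markers, from nuclei that the gate should leave out, summed to 237 and 274 in WT and 181 and 159 in GrnKO, and of the 4 tested Syt1 fell (log2 change -0.99, adjusted p 0.0213). Syt1 was not called without GrnKO replicate 1 (adjusted p 0.204) or GrnKO replicate 2 (0.0935), and no neuronal marker was called under the authors' scaling. Calls were also lost at Csf1r, Siglech, Ccr2 and S100a8 without either GrnKO library, at Tmem119 without GrnKO replicate 1, and at Cd4 and Mbp without GrnKO replicate 2 (adjusted p 0.0508 to 0.446). No marker in the table was at 0 in all 4 libraries. The part of these shifts in the results for Tnf, Nfkbia, Tnfaip3 and the pathway lists was not tested.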

How the data were processed

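H3K27ac and input libraries were sequenced from sorted brain nuclei. The authors deposited 1 table of signal values for 129304 regions, and per the file headers these are HOMER tags scaled to 10000000 per library, with the library totals given there. The submitters' processing notes name Bowtie2, HOMER, DESeq2 and the build mm10, without versions or roles. Up to the rounding of the deposited values, whole read ends could be recovered from 100% of values in all 8 libraries. For the main test, values were scaled by TMM (edgeR 4.0.16), filtered (filterByExpr, minimum 10 tags), and log2(value + 1) was fitted by limma 3.58.1 in R 4.3.3 with genotype as the only term. It was run over 80728 regions and over 15380 genes (tags summed over a gene's regions), with Benjamini-Hochberg adjustment and a threshold of 0.05. Changes on this scale depend on the added 1 where regions are weak. The edgeR quasi-likelihood test and DESeq2 1.42.0 on recovered reads were alternatives. Inputs were the background. The p-values rest on the spread between 2 pools per genotype, but not on the feature's own spread alone. In limma each variance is drawn toward a trend over all tested regions or genes. PCR reads without molecular identifiers are not independent molecules, and 3 tags correspond to 1.50 to 1.94 scaled tags per H3K27ac library before TMM. Same-numbered libraries are not paired by the labels. The members and lists were chosen with earlier results of these data known. Named were all 10 genes, Grn, the highest region of each gene within and beyond 1000 bp of a start site, called regions (at most 6 a gene by smallest p), and at most 4 called genes per list and direction, with Rela always. Sequences came from RefSeq tables of GRCm38.p6. All columns of values were matched to a sample. Some items are not reported here.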

Additional observations from a re-analysis of the deposited data

How the results depend on the processing

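With 2 pools per genotype, calls rest on little replication, and the depth of the inputs (43.1 to 91.3% of regions at 0) limits any contrast with them. Of 724 alternative values, 586 kept their direction, side of the threshold or size. Causes of the changes below were not tested. Tnf stayed higher and called under all alternatives except the contrast of the H3K27ac effect with the input effect, with log2 changes from 0.84 to 1.22. The input contrast called 0 of the regions and 0 of the genes by limma (6117 and 888 at an unadjusted p under 0.05), and 0 of each pathway list. Under it the gene sums were -0.97 for Tnf, 1.12 for Il1b, -3.68 for Nfkb1, 2.75 for Nfkb2, 0.18 for Relb, -0.44 for Nfkbiz and -3.25 for Tnfaip3. It also turned the regions Tnf 35200245 (-0.23) and 35200806 (-0.038), Il1b 129379994 (0.70), Nfkb2 46305266 (1.01), Rel 23823103 (-1.89), Relb 19629117 (-1.06), Nfkbia 55488884 (-1.35), Nfkbiz 55821245 (-0.78), and Tnfaip3 18943260 (-0.11) and 19014497 (1.82), each given by its gene and start.

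Under the authors' scaling, Rel was at 0.15 and Relb at 0.15, and the regions Il1a 129313729 (0.093), Il1b 129379994 (0.028), Nfkb1 135607481 (0.14) and 135691053 (0.063), Nfkb2 46305266 (0.20), Rel 23769905 (0.17), Relb 19619376 (0.037), Nfkbiz 55820642 (0.023), and Tnfaip3 19014497 (0.12) and 19062303 (0.046) turned positive. Il1b was called with median-of-ratios factors (-0.33, adjusted p 0.0461), pseudocount 5 (-0.33, 0.0494), array weights (-0.33, 0.0457) and the replicate block (-0.33, 0.0158). Sums over regions beyond 1000 bp gave -0.042 for Il1a, 0.041 for Relb and -0.0094 for Nfkbiz. Sums within 1000 bp gave -0.077 for Nfkb1 and -0.021 for Tnfaip3, and non-overlapping regions gave -0.0021 for Nfkb1.

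Leaving out each library in turn gave log2 changes of -0.018 to 0.14 for Il1a, -0.41 to -0.25 for Il1b, -0.039 to 0.082 for Nfkb1, -0.074 to 0.39 for Nfkbia and -0.0078 to 0.056 for Tnfaip3. Regions that changed sign ranged from -0.20 to 0.026 (Nfkb1 135607481), -0.34 to 0.015 (Nfkb1 135691053), -0.16 to 0.11 (Nfkb2 46305266), -0.11 to 0.19 (Rel 23823103), -1.12 to 0.90 (Relb 19619376), -0.078 to 0.12 (Relb 19629117), -0.10 to 0.18 (Nfkbia 55488884) and -0.26 to 0.40 (Nfkbia 55492344). The same step gave 1335 to 14319 called regions and 779 to 3716 called genes, against 7843 and 2226, with the low counts when a GrnKO library was left out. Of the regions of the 10 genes it called 2 without GrnKO replicate 1, 5 without GrnKO replicate 2, 24 without WT replicate 1 and 21 without WT replicate 2. Called genes ranged from 1 to 3 for subunits and IkappaB proteins, 2 to 7 for kinases and adaptors, 0 to 9 for negative regulators, 0 to 3 for receptors, 3 to 9 for cytokines and 3 to 10 for targets.

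With regions within 1000 bp only, 581 genes were called, with 0 subunit or IkappaB genes, 1 kinase or adaptor, 1 negative regulator, 1 receptor and 2 cytokines. With regions beyond 1000 bp only, 1 negative regulator was called. The authors' scaling called 0 subunit or IkappaB genes, 1 kinase or adaptor, 1 negative regulator and 0 receptors. DESeq2 and non-overlapping regions each called 2 subunit or IkappaB genes. The labels do not pair same-numbered libraries, and their deviations correlated at 0.03 over regions and 0.04 over genes, though Y-linked and Xist signal split by replicate number in both genotypes. With the replicate block 2 subunit or IkappaB genes and 6 negative regulators were called, 19 regions of the 10 genes in place of 13, and 11391 regions and 2841 genes over all.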
